A study of Aspergillus fumigatus with 4 samples.

Results

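The comparison described here set the transcriptome of *Aspergillus fumigatus* strain Z5 in xylan against that in sucrose. The members were the reads of every gene in these libraries, 2 of the 4 in the series, each scaled to its own library total (RPM, the reads of a gene per 1000000 reads of the library). The table held 9540 genes, of which 9392 had at least 1 read in xylan or sucrose and were compared, and 148 had none in either. *A. fumigatus* Z5 is a thermotolerant filamentous fungus that degrades plant cell walls, and the study asked which of its genes respond to different plant polysaccharides. Mycelium of strain Z5 was grown from conidia in sucrose medium at 45 °C and 145 rpm, for 20 h by the sample labels and for longer by the study's methods. It was then moved for 16 h to medium without yeast extract in which xylan from oat spelts, cellulose or rice straw was the sole carbon source, and mycelium in sucrose served as the control. Each carbon source was represented by 1 library, so no difference below has a replicate check. How long the sucrose culture grew before harvest was not clear from the sources used here, so the carbon source cannot be told apart from the transfer, the change of medium and the age of the culture.

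Xylan is the main hemicellulose of grass cell walls, a backbone of linked D-xylose units that carries arabinose, acetyl and glucuronic acid side groups. Fungi cut the backbone with secreted endo-xylanases, trim the fragments with beta-xylosidases and remove side groups with esterases and arabinofuranosidases. The D-xylose released is taken up by sugar transporters, reduced to xylitol, oxidised to D-xylulose and phosphorylated for the pentose phosphate pathway. In aspergilli the activator XlnR switches on both the secreted enzymes and this pathway, and CreA represses them when a preferred sugar is present.

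The libraries were alike in depth, with 6820702 reads in xylan, 7016686 in cellulose, 7553138 in rice straw and 7005719 in sucrose, so that 1 read was worth 0.132 to 0.147 RPM. Between 9252 and 9275 genes had a read, and the 10 most abundant genes took 11.6% to 14.7% of a library. A gene was called higher or lower in xylan when its RPM differed at least 4-fold from sucrose, a binomial test of its reads gave an adjusted q of at most 0.0001, and it reached 10 RPM in either library. This test compares the libraries and not the conditions. The ratios below carry exact 95% intervals in brackets, which cover counting error only and not the spread between cultures. Reads from amplified libraries are not independent molecules, so the intervals may be too narrow even for counting error. RPM is not corrected for gene length. In bulk mycelium, fewer cells that express a gene and less RNA per cell cannot be told apart.

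In xylan 297 genes were higher and 147 were lower than in sucrose, 3.16% and 1.57% of the genes compared, and 4.73% together. The differences upward were the wider ones. The higher genes had a median ratio of 9.06-fold, and 99 of them exceeded 16-fold, whereas the lower genes had a median of 5.82-fold and 21 of them exceeded 16-fold. Together the higher genes took 12.6% of all reads in xylan and 0.919% in sucrose, and the lower genes took 0.721% in xylan and 5.38% in sucrose. Most genes moved little, since 72.3% of those compared were within 2-fold and the median log2 ratio was -0.20. That median shifted by 0.19 with edgeR TMM factors and by 0.21 with DESeq2 size factors. With DESeq2 size factors 356 genes were higher and 106 lower, which made 77.1% of the calls higher, against 66.9% with library totals. At a 2-fold threshold with library totals the split turned round, to 704 higher and 843 lower genes. A function text other than hypothetical protein stood beside 150 of the 297 higher and 78 of the 147 lower genes.

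**Figure D1:**
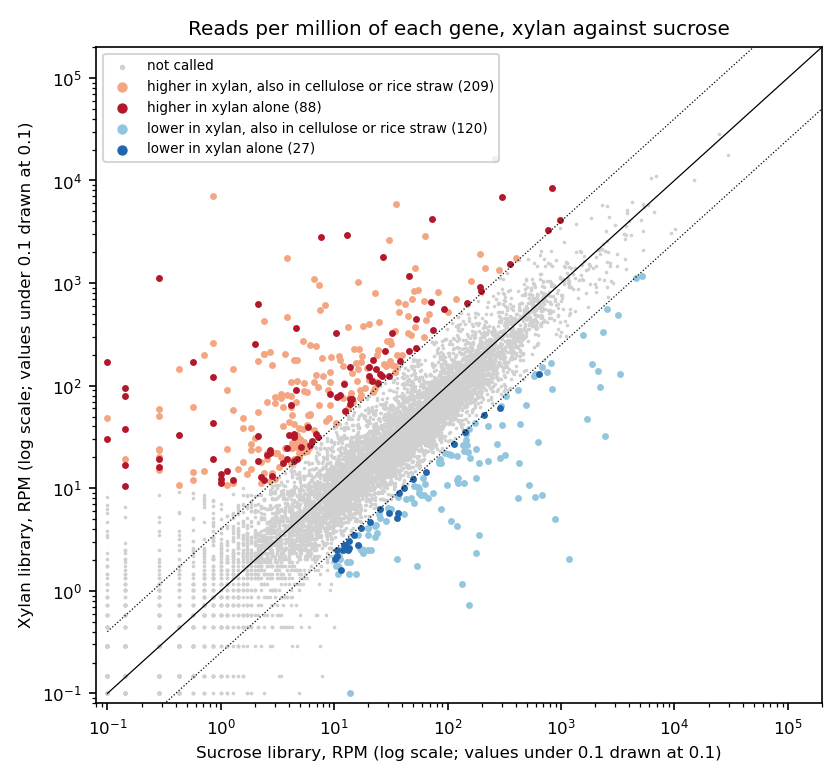
Each point is 1 gene, with its RPM in the sucrose library on the horizontal axis and in the xylan library on the vertical axis, both on log scales. Solid and dotted lines mark equality and 4-fold, and colours separate the 88 genes higher and 27 lower in xylan alone from the other called genes. The points furthest from the diagonal lie above it, at 1000 RPM and more in xylan and under 1 RPM in sucrose.

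Genes for cutting the xylan backbone were expressed far above sucrose but at moderate levels. Of 7 endo-xylanase genes, 5 were higher in xylan and none lower, and the median log2 ratio was 4.61 against -0.20 over all genes. XlnA, the GH11 xylanase Y699_07611 (xynf11a in the reference strain Af293), had 146 RPM in xylan, 947 in cellulose, 2359 in rice straw and 0.428 in sucrose, a ratio of 340.3-fold [116 to 1653]. The GH10 xylanase Y699_09486 had 50.9 RPM in xylan, 50.02 in cellulose, 189 in rice straw and 0.285 in sucrose, 178-fold above sucrose [48.96 to 1477]. Y699_06333, also of GH10, had 20.1 RPM in xylan, 199.8 in cellulose, 194 in rice straw and 0.285 in sucrose, 70.4-fold [19.1 to 587]. All of these had 3 reads or fewer in sucrose, and their intervals are accordingly wide. The GH11 xylanase Y699_07623 had 67.3 RPM in xylan, 8.69 in cellulose, 110.3 in rice straw and 2.998 in sucrose, 22.4-fold [14.5 to 36.6]. Y699_04481, a GH10 xylanase with a cellulose-binding module, had 62.6 RPM in xylan, 2342 in cellulose, 2502 in rice straw and 4.14 in sucrose, 15.1-fold [10.4 to 22.9]. The other members were not called. Y699_04351 of GH11 had 8.65 RPM in xylan, 5.42 in cellulose, 23.7 in rice straw and 0.285 in sucrose and stayed under 10 RPM in both xylan and sucrose, and Y699_04313 of GH10 had no read in xylan, cellulose or rice straw and 1 read in sucrose.

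Summed over the 7 genes, endo-xylanase transcripts reached 355 RPM in xylan, 3553 in cellulose, 5377 in rice straw and 8.56 in sucrose. Xylan was thus above sucrose and below both other polysaccharides. Set directly against cellulose, where 6.49% of all genes were higher and 9.65% lower in xylan, 1 endo-xylanase was higher and 3 were lower. Against rice straw, where 4.68% of all genes were higher and 4.56% lower in xylan, none was higher and 3 were lower. The member higher in xylan than in cellulose was Y699_07623, and XlnA, Y699_04481 and Y699_06333 were lower in xylan than in both. These comparisons share the xylan library with the main one and are not independent of it.

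Enzymes that act after the backbone is cut were called in smaller numbers. Of 8 genes with a beta-xylosidase text, 2 were higher and none lower. The GH43 xylosidase Y699_05610 had 213 RPM in xylan, 151 in cellulose, 229.8 in rice straw and 2.71 in sucrose, 78.4-fold above sucrose [50.01 to 131]. The GH43 xylosidase/arabinosidase Y699_04570 had 48.2 RPM in xylan, 11.4 in cellulose, 51.9 in rice straw and no read in sucrose, at least 113-fold higher when a floor of 3 reads is set for the sucrose library. BxlB, the GH3 beta-xylosidase Y699_07880, had 8.06 RPM in xylan, 9.12 in cellulose, 30.3 in rice straw and 0.571 in sucrose and was below the 10 RPM needed for a call. The remaining 5 members lay between 2.79 and 12.2 RPM in xylan and between 4.42 and 26.8 in sucrose, and the list's median log2 ratio was -0.18, which turned to 0.018 with TMM and 0.035 with DESeq2 factors. Among 9 genes for side groups of xylan, 2 were higher and none lower. The acetyl xylan esterase Y699_07619, which removes acetyl groups, had 57.3 RPM in xylan, 13.3 in cellulose, 18.3 in rice straw and 1.28 in sucrose, 44.6-fold [23.3 to 98.3], and it was also higher in xylan than in cellulose. The arabinofuranosidase Y699_04661, which releases arabinose, had 19.5 RPM in xylan, 426 in cellulose, 1773 in rice straw and 2.57 in sucrose.

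The pathway from D-xylose to xylulose 5-phosphate was higher in xylan at the reductase, the dehydrogenase and the kinase step. Of 9 pentose catabolism genes 6 were higher and none lower, with a median log2 ratio of 2.59. D-xylose reductase Xyl1 (Y699_06810), the entry step that makes xylitol, had 624 RPM in xylan, 301 in cellulose, 371 in rice straw and 42.3 in sucrose, 14.8-fold [13.1 to 16.7]. Xylitol dehydrogenase Y699_08949, which makes D-xylulose, had 374 RPM in xylan, 68.3 in cellulose, 93.1 in rice straw and 13.1 in sucrose, 28.5-fold [23.2 to 35.5]. The xylan library was the highest of the 4 for this gene, which passed the thresholds against each of the other 3. A second xylitol dehydrogenase, XdhB (Y699_09019), had 87.2 RPM in xylan, 60.7 in cellulose, 63.2 in rice straw and 5.71 in sucrose, 15.3-fold [11.1 to 21.6]. D-xylulose kinase, xkiA (Y699_00823), which phosphorylates D-xylulose, had 273 RPM in xylan, 44.8 in cellulose, 235 in rice straw and 30.8 in sucrose, 8.84-fold [7.67 to 10.2]. Its level in cellulose was close to that in sucrose, whereas xylan and rice straw were both high.

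The other pentose catabolism genes were less uniform. The aldehyde reductase Y699_04174 had 234 RPM in xylan, 27.1 in cellulose, 54.02 in rice straw and 52.7 in sucrose, 4.45-fold [3.97 to 4.99], and it was called in xylan but in neither other polysaccharide against sucrose. Like Y699_08949, it was called higher in xylan than in each of the other libraries. ArbD (Y699_00731), a D-arabinitol dehydrogenase, had 28.7 RPM in xylan, 335.1 in cellulose, 289 in rice straw and 4.71 in sucrose, 6.101-fold [4.203 to 9.11]. Its level in xylan was far below that in cellulose and rice straw. The sorbitol/xylulose reductase Y699_02329 had 682 RPM in xylan, 53.02 in cellulose, 773 in rice straw and 313 in sucrose and was not called. Phosphoketolases split xylulose 5-phosphate into a 2-carbon and a 3-carbon product. Y699_07616, one of these, had 764 RPM in xylan, 31.1 in cellulose, 164 in rice straw and 760.4 in sucrose, and Y699_01475, the other, had 545 RPM in xylan, 18.1 in cellulose, 127 in rice straw and 602 in sucrose. Neither was called against sucrose, and the log2 ratio of Y699_01475, -0.14, changed sign to 0.052 with TMM and 0.070 with DESeq2 factors. Both were higher in xylan than in cellulose and rice straw. Over the 9 genes, 6 were higher and 1 lower in xylan than in cellulose, against 6.49% and 9.65% of all genes. Compared with rice straw 4 were higher and 1 lower in xylan, against 4.68% and 4.56% of all genes. The summed level was 3612 RPM in xylan, 939 in cellulose, 2168 in rice straw and 1824 in sucrose.

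**Figure D2:**
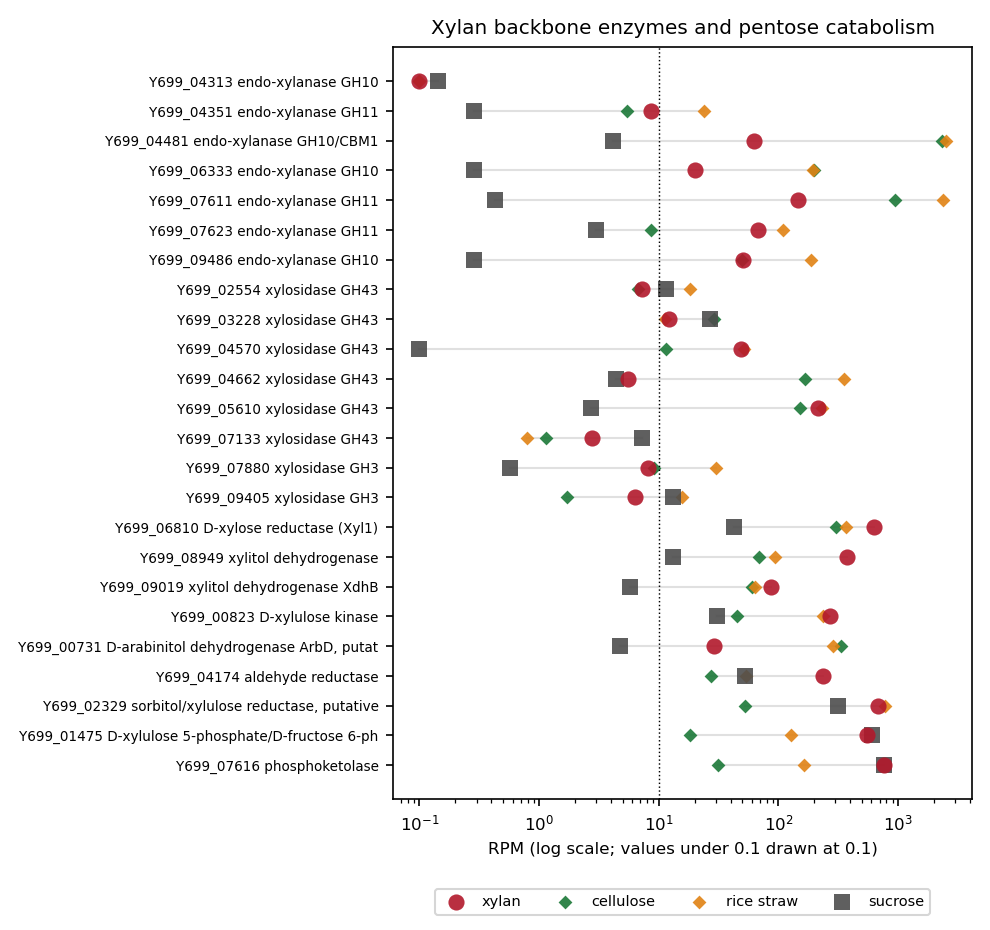
RPM on a log scale of the 7 endo-xylanase, 8 beta-xylosidase and 9 pentose catabolism genes in the xylan (circle), cellulose, rice straw (diamonds) and sucrose (square) libraries, 1 gene per line, with 10 RPM as a dotted line. The endo-xylanases with reads lie left of rice straw in xylan, XlnA at 146 RPM, while Xyl1 and the xylitol dehydrogenase Y699_08949 are furthest right in xylan, at 624 and 374 RPM.

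The regulators themselves were not called. XlnR (Y699_02312), the xylanase activator, had 20.97 RPM in xylan, 179 in cellulose, 226 in rice straw and 22.98 in sucrose, and its log2 ratio of -0.13 changed sign to 0.062 with TMM and 0.080 with DESeq2 factors. CreA (Y699_02675), the carbon catabolite repressor, had 673 RPM in xylan, 3366 in cellulose, 4714 in rice straw and 614 in sucrose. For both genes xylan lay close to sucrose and was called lower than cellulose and rice straw. A list of 22 homologs of genes that respond to D-xylose in other aspergilli had 7 members higher and 1 lower, with a median log2 ratio of 1.20. The 7 higher members of the list included 5 of the pentose genes above. The 1 lower member was the monosaccharide transporter Y699_02697. The study describes 1 gene of this set, a monosaccharide transporter, as lowered on D-xylose in those aspergilli, and its homolog as decreased in all 3 polysaccharides here.

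Genes for the uptake of sugars supplied many of the higher calls. Of 40 genes with a sugar transporter text 16 were higher and 2 lower, with a median log2 ratio of 0.94. These texts, like those of most lists here, were given mainly to genes that vary over the 4 libraries, so a share above 3.16% is not independent evidence of a direction. The maltose transporter Y699_03783 had 425 RPM in xylan, 9.41 in cellulose, 277 in rice straw and 2.43 in sucrose, 175-fold [109 to 301]. The hexose transporter Y699_07916 had 1089 RPM in xylan, 2880.1 in cellulose, 5324 in rice straw and 6.57 in sucrose, 166-fold [124 to 226.7]. The sugar transporter Y699_06922 had 1031 RPM in xylan, 261 in cellulose, 455 in rice straw and 16.3 in sucrose, 63.4-fold [52.7 to 76.96]. The monosaccharide transporter Y699_04557 had 794 RPM in xylan, 1.71 in cellulose, 217 in rice straw and 22.8 in sucrose, 34.8-fold [29.7 to 40.9]. In cellulose this gene was below sucrose, whereas in xylan and rice straw it was above. The hexose transporter Y699_04571 had 59.8 RPM in xylan, 7.84 in cellulose, 132 in rice straw and 0.285 in sucrose, 209.5-fold [57.6 to 1736], and Y699_05888, a sugar transporter, had 175 RPM in xylan, 10.1 in cellulose, 138 in rice straw and 2.14 in sucrose, 81.9-fold [49.5 to 147].

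The transporters did not follow a common order over the polysaccharides. Y699_03783, Y699_04557, Y699_04571 and Y699_05888 were each higher in xylan than in cellulose, while Y699_07916 was highest in rice straw. Of the 40 transporters 8 were higher and 13 lower in xylan than in cellulose, against 6.49% and 9.65% of all genes. Compared with rice straw 2 were higher and 16 lower in xylan, against 4.68% and 4.56% of all genes. The list holds mainly genes that vary over the 4 libraries. The sugar transporter Y699_08273 was the member called in xylan alone, with 83.9 RPM in xylan, 31.6 in cellulose, 33.9 in rice straw and 9.14 in sucrose, 9.18-fold [7.08 to 12.1]. Y699_02697, a monosaccharide transporter that led the list in sucrose, had 97.9 RPM in xylan, 37.3 in cellulose, 30.2 in rice straw and 2226 in sucrose, 22.7-fold lower [21.03 to 24.6]. Y699_08798, also a monosaccharide transporter, had 9.09 RPM in xylan, 0.855 in cellulose, 2.12 in rice straw and 73.9 in sucrose, 8.13-fold lower [6.24 to 10.8]. Both were low in all 3 polysaccharides.

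**Figure D3:**
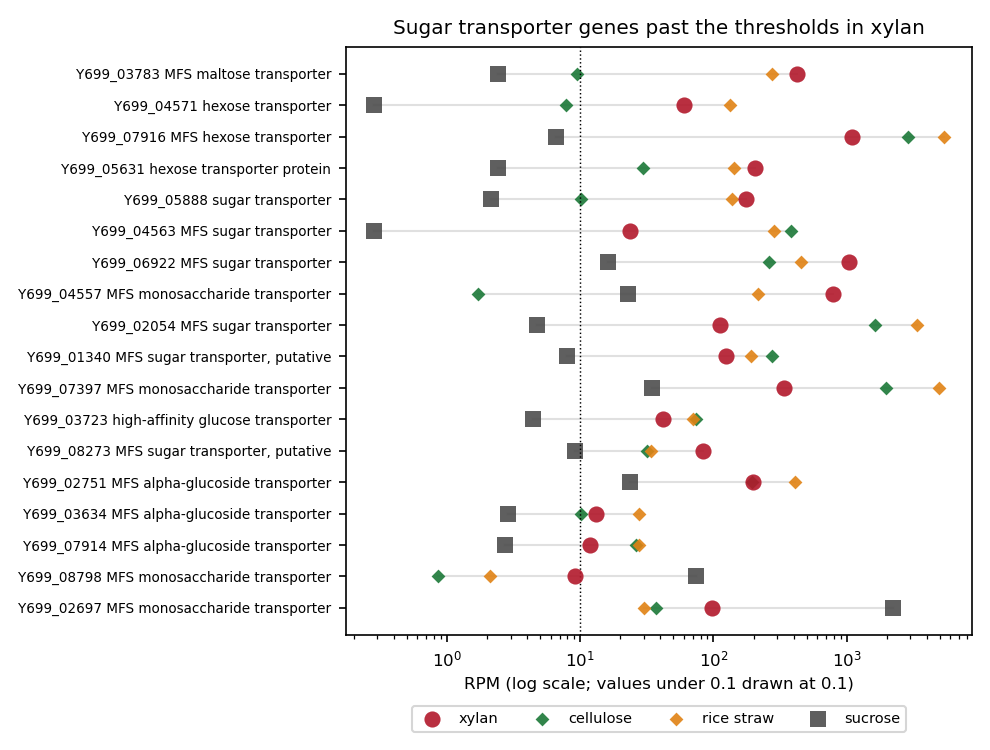
RPM on a log scale of the 18 sugar transporter genes called between xylan and sucrose, ordered by the log2 ratio, in the xylan (circle), cellulose, rice straw (diamonds) and sucrose (square) libraries. In 16 of them xylan lies right of sucrose, with Y699_04557 at 794 RPM in xylan and 1.71 in cellulose, and in the 2 lowest, Y699_02697 and Y699_08798, it lies left.

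Some genes for other carbon sources were higher too. In amino sugar use, the breakdown of N-acetylglucosamine from chitin, 3 of 6 genes were higher and none lower. N-acetylglucosamine-6-phosphate deacetylase (Y699_05670) had 109 RPM in xylan, 302 in cellulose, 128 in rice straw and 4.14 in sucrose, 26.3-fold [18.1 to 39.5]. Glucosamine-6-phosphate isomerase (Y699_05673), the next step, had 194 RPM in xylan, 348 in cellulose, 326 in rice straw and 17.6 in sucrose, 11.05-fold [9.18 to 13.4]. In glycerol use 3 of 7 genes were higher and none lower. Glycerol kinase (Y699_04006) had 657 RPM in xylan, 591 in cellulose, 1330.04 in rice straw and 36.4 in sucrose, 18.04-fold [15.9 to 20.5], and the aquaglyceroporin next to it (Y699_04007), a channel for glycerol, had 109 RPM in xylan, 67.4 in cellulose, 462 in rice straw and 9.14 in sucrose, 11.9-fold [9.23 to 15.6]. DakA (Y699_05131), a dihydroxyacetone kinase, had 27.1 RPM in xylan, 78.4 in cellulose, 90.96 in rice straw and 4.57 in sucrose. For all of these, cellulose and rice straw were called higher than sucrose as well.

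Of 6 genes of gluconeogenesis and the glyoxylate cycle, 3 were higher and none lower. Fructose-1,6-bisphosphatase Fbp1 (Y699_06494), an enzyme particular to gluconeogenesis, had 1047 RPM in xylan, 1709 in cellulose, 2261 in rice straw and 162 in sucrose, 6.48-fold [6.08 to 6.903]. Malate synthase AcuE (Y699_07347) had 1342 RPM in xylan, 1824 in cellulose, 8651 in rice straw and 283 in sucrose, 4.75-fold [4.52 to 4.99]. Isocitrate lyase AcuD (Y699_09164) had 77.4 RPM in xylan, 660.4 in cellulose, 652 in rice straw and 13.7 in sucrose, 5.65-fold [4.54 to 7.097]. The xylan values of these genes lay between sucrose and the other polysaccharides. Of 9 glycolysis and pyruvate decarboxylation genes, 2 were higher and 2 lower. The hexokinase Y699_04619 had 90.02 RPM in xylan, 8.41 in cellulose, 43.6 in rice straw and 8.85 in sucrose, 10.2-fold [7.82 to 13.4], and the hexokinase Y699_08425 had 162 RPM in xylan, 321 in cellulose, 66.9 in rice straw and 27.5 in sucrose. The glyceraldehyde 3-phosphate dehydrogenase gene Y699_00075 had 8.06 RPM in xylan, 7.27 in cellulose, 2.52 in rice straw and 413 in sucrose, 51.2-fold lower [39.3 to 68.2]. Another, Y699_05724, had 10.1 RPM in xylan, 129 in cellulose, 18.5 in rice straw and 41.3 in sucrose, 4.08-fold lower [3.13 to 5.38], and was lower in xylan alone, a call that ended with TMM and with DESeq2 factors.

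Several genes of nitrogen assimilation were lower in xylan. Of 12 listed, 6 were lower and none higher, with a median log2 ratio of -1.91. The ammonium transporter MeaA (Y699_03361) had 18.3 RPM in xylan, 19.2 in cellulose, 15.1 in rice straw and 226 in sucrose, 12.4-fold lower [10.3 to 14.9]. Nitrate reductase NiaD (Y699_05084) had 65.2 RPM in xylan, 15.1 in cellulose, 26.5 in rice straw and 487 in sucrose, 7.47-fold lower [6.76 to 8.26]. Nitrite reductase NiiA (Y699_05083), the step after it, had 335.01 RPM in xylan, 3.14 in cellulose, 115 in rice straw and 2333 in sucrose. Glutamate synthase Glt1 (Y699_01116) had 314 RPM in xylan, 305 in cellulose, 154 in rice straw and 1575 in sucrose, 5.01-fold lower [4.78 to 5.25], and a further nitrate reductase gene, Y699_00875, had 8.65 RPM in xylan, 7.98 in cellulose, 8.21 in rice straw and 61.4 in sucrose. These genes were also lower than sucrose in cellulose and rice straw, and NiiA and NiaD were higher in xylan than in cellulose. With TMM factors 5 of the 12 genes were lower in place of 6. The medium without yeast extract and the carbon source changed together, and their parts in this result cannot be told apart.

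Several ion pumps were higher, while proteases moved in both directions. Of 7 sodium and calcium pump genes 4 were higher and none lower. The sodium ATPase Y699_07333 (ena1), which exports sodium, had 158 RPM in xylan, 412 in cellulose, 14.2 in rice straw and 2.85 in sucrose, 55.5-fold [35.8 to 91.3]. A second sodium ATPase, Y699_06329, had 82.98 RPM in xylan, 93.3 in cellulose, 9.003 in rice straw and 3.43 in sucrose, 24.2-fold [16.1 to 38.1], and the calcium ATPase pmcB (Y699_01482) had 228 RPM in xylan, 863.2 in cellulose, 132 in rice straw and 16.7 in sucrose, 13.7-fold [11.3 to 16.6]. Of 15 secreted and vacuolar proteases 4 were higher and 2 lower. The secreted dipeptidyl peptidase dppV (Y699_02913) had 165 RPM in xylan, 391 in cellulose, 462 in rice straw and 15.6 in sucrose, 10.6-fold [8.72 to 13.05]. The aspartic endopeptidase yap2 (Y699_02278) had 135 RPM in xylan, 297 in cellulose, 508 in rice straw and 9.14 in sucrose. The tripeptidyl peptidase sedD (Y699_09209) had 3.52 RPM in xylan, 3.28 in cellulose, 28.2 in rice straw and 189.99 in sucrose, 53.99-fold lower [36.1 to 84.6], and the serine protease pr1 (Y699_08513) had 5.57 RPM in xylan, 1.57 in cellulose, 0.794 in rice straw and 41.3 in sucrose. Amino acid and peptide transporters were split, with 3 of 20 higher and 3 lower. Among them the permease Dip5 (Y699_02930) had 70.1 RPM in xylan, 258 in cellulose, 94.1 in rice straw and 4.57 in sucrose, 15.3-fold [10.7 to 22.7], and the oligopeptide transporter optB (Y699_02344) had 9.09 RPM in xylan, 13.5 in cellulose, 175 in rice straw and 55.95 in sucrose, 6.16-fold lower [4.699 to 8.18].

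Genes for other plant polysaccharides were called in unequal shares. Of 521 carbohydrate-active enzyme genes compared 34 were higher, 6.53% against 3.16% of all genes, and 15 were lower, 2.88% against 1.57%. In xylan alone 5 of the 521 were higher and 3 lower, where the shares over all genes were 0.937% and 0.287%. The 5 of 521 lay close to the share over all genes. Of 48 cellulase genes 9, or 18.8%, were higher and 2 lower, and with TMM factors 10 were higher and none lower. Among all 51 listed cellulase genes, 1 was higher and 22 were lower in xylan than in cellulose, against 6.49% and 9.65% of all genes. Compared with rice straw, 1 was higher and 23 were lower in xylan, against 4.68% and 4.56% of all genes. The beta-glucosidase Y699_00561 had 79.02 RPM in xylan, 826 in cellulose, 1003 in rice straw and 4.14 in sucrose, 19.1-fold [13.1 to 28.8]. The glucanase exg3 (Y699_08586) had 469 RPM in xylan, 118 in cellulose, 137 in rice straw and 3.85 in sucrose, 122-fold [83.5 to 185], with its highest level in xylan. The lytic polysaccharide monooxygenase Y699_02424 of family AA9, a copper enzyme that oxidises polysaccharide chains, had 845 RPM in xylan, 541 in cellulose, 668 in rice straw and 50.1 in sucrose, 16.9-fold [15.1 to 18.8]. Of 33 pectinase genes none was higher and 2 were lower, the polygalacturonases pgaA (Y699_09200), with 1.76 RPM in xylan, 1.43 in cellulose, 3.05 in rice straw and 53.7 in sucrose, and pgaB (Y699_05780), with 2.49 RPM in xylan, 1.995 in cellulose, 57.3 in rice straw and 11.4 in sucrose. pgaB was called higher in rice straw than in sucrose, and its call in xylan ended with DESeq2 factors. Of the secretory pathway genes none was higher and 2, or 0.881%, were lower, and with TMM or DESeq2 factors 1 was higher and 1 lower.

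Cell wall genes moved in both directions, and 2 of the lower ones were among the widest differences downward. Of 34 cell wall genes 3 were higher and 4 lower, with a median log2 ratio of -0.53. The GH16 glucanase Y699_07380 had 4.98 RPM in xylan, 1.57 in cellulose, 8.21 in rice straw and 889 in sucrose, 178-fold lower [127 to 258]. The GPI-anchored wall protein Y699_07627 had 10.7 RPM in xylan, 0.143 in cellulose, 8.61 in rice straw and 524 in sucrose, 48.9-fold lower [38.8 to 62.6]. The glucanosyltransferase gel2 (Y699_04274), which joins wall glucans, had 502 RPM in xylan, 1729.9 in cellulose, 1105 in rice straw and 68.5 in sucrose, 7.32-fold higher [6.65 to 8.07]. A run of 4 neighbouring genes, Y699_05769 to Y699_05772, was lower by 7.20-fold to 10.9-fold. It holds a nucleotide-sugar transporter (Y699_05769, 42.4 RPM in xylan, 16.96 in cellulose, 35.6 in rice straw and 437 in sucrose), a glycosyl transferase (Y699_05770), a de-N-acetylase (Y699_05771) and a GT69 gene (Y699_05772), and all 4 were lower in cellulose and rice straw too. The GH76 glycosyl hydrolase gene Y699_07885 had 0.733 RPM in xylan, 0.143 in cellulose, 6.09 in rice straw and 155 in sucrose, 212-fold lower [90.5 to 654]. Of the 10 lower genes furthest from equality, 2 had no function text, Y699_07827 at 114-fold [57.5 to 264] and Y699_00235 at 75.1-fold [65.8 to 86.2] lower, the second with 32.4 RPM in xylan, 307 in cellulose, 122 in rice straw and 2434 in sucrose.

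Conidiation genes were examined because spore-forming cells could be a second cell type in the cultures. Of 14 such genes 4 were higher and none lower, and the list summed to 3401 RPM in xylan, 11871 in cellulose, 11101 in rice straw and 609 in sucrose. Most of the xylan sum came from EsdC (Y699_08892), known from early sexual development in *A. nidulans*, with 2649 RPM in xylan, 7199 in cellulose, 10018 in rice straw and 30.5 in sucrose, 86.7-fold [75.8 to 99.7]. The spore hydrophobins rodA (Y699_00799) and rodB (Y699_09371), which coat conidia, had 14.5 RPM in xylan, 512 in cellulose, 0.265 in rice straw and 0.571 in sucrose, and 22.3 RPM in xylan, 2072 in cellulose, 41.8 in rice straw and 4.85 in sucrose. The spore pigment synthase PksP (Y699_02122) had 60.7 RPM in xylan, 607 in cellulose, 27.01 in rice straw and 62.1 in sucrose, and the developmental regulator wetA (Y699_04830) had 3.37 RPM in xylan, 23.8 in cellulose, 9.003 in rice straw and 6.99 in sucrose, neither of them called. None of the 14 was at 0 in xylan. In xylan both hydrophobins were above their sucrose levels and far below their cellulose levels. rodA was called higher in xylan than in sucrose, 25.4-fold [9.62 to 95.1] with 4 reads in sucrose, and higher than in rice straw. The part of conidiation in the other results was not tested. Of 12 heat shock genes 2 were higher, Hsp30-like Y699_03805 and Hsp12 (Y699_04375), the second with 26.8 RPM in xylan, 2.99 in cellulose, 66.7 in rice straw and 1.86 in sucrose, 14.5-fold [8.25 to 27.7]. Of 15 iron uptake genes 1 was higher, the metalloreductase component Y699_07482, with 24.5 RPM in xylan, 59.1 in cellulose, 103 in rice straw and 5.995 in sucrose, a call that ended with an assumed coefficient of variation of 0.2.

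The highest ratios of the comparison lay in clusters of secondary metabolism genes. Fungi often keep the genes for a toxin or pigment side by side, as a cluster built round a nonribosomal peptide synthase or a polyketide synthase. Gliotoxin, a sulphur-bridged toxin of *A. fumigatus*, starts from a dipeptide that GliP assembles, and the cytochrome P450 GliF belongs to the same route. The cluster that holds the GliP text had 17 genes, and 14 of them were higher in xylan and none lower. Its median log2 ratio was 6.95, or 6.13 with 2 genes that had no sucrose read set at the floor. All 14 were higher in xylan than in either other polysaccharide as well, and 13 were called against sucrose in xylan alone, where the share over all genes was 0.937%. The summed level was 18545 RPM in xylan, 266 in cellulose, 177 in rice straw and 394 in sucrose.

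The GliP gene itself, Y699_04115, had 323 RPM in xylan, 2.99 in cellulose, 1.06 in rice straw and 10.3 in sucrose, 31.4-fold [24.9 to 40.3]. GliF (Y699_04122) had 1781 RPM in xylan, 44.8 in cellulose, 3.31 in rice straw and 26.7 in sucrose, 66.7-fold [57.8 to 77.5]. Both of these were called lower in rice straw than in sucrose. A further nonribosomal peptide synthase of the cluster, Y699_04110, had 627 RPM in xylan, 0.428 in cellulose, 0.132 in rice straw and 2.14 in sucrose, 293-fold [177 to 524]. Several abundant members had no function text. Y699_04120 had 6980.1 RPM in xylan, 1.85 in cellulose, 21.8 in rice straw and 0.856 in sucrose, 8150.1-fold [3744 to 22209.5], and was the member also called higher in rice straw. Y699_04123 had 6894 RPM in xylan, 167 in cellulose, 117 in rice straw and 301 in sucrose, 22.9-fold [21.9 to 23.9], and Y699_04117 had 1109 RPM in xylan, 0.713 in cellulose, 1.06 in rice straw and 0.285 in sucrose, 3886-fold [1075 to 32091]. Y699_04121 and Y699_04119 had 171 and 30.1 RPM in xylan and no read in sucrose, at least 400.2-fold and at least 70.2-fold higher.

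The remaining members of the cluster were lower in level. Y699_04111, Y699_04112, Y699_04116 and Y699_04118 had 37.8, 255, 171 and 78.7 RPM in xylan, and none exceeded 9.27 RPM in any other library. Y699_04113 and Y699_04114 had 19.5 and 12.9 RPM in xylan against 3.85 and 2.28 in sucrose, and neither call remained with an assumed coefficient of variation of 0.2. The 3 genes at the low end of the locus order were not called. They were Y699_04107, with 11.9 RPM in xylan, 5.27 in cellulose, 7.55 in rice straw and 18.98 in sucrose, Y699_04108, with 27.7 RPM in xylan, 9.26 in cellulose, 10.1 in rice straw and 18.3 in sucrose, and Y699_04109, with 13.5 RPM in xylan, 14.8 in cellulose, 1.06 in rice straw and 6.28 in sucrose. At the other end the higher run passed the annotated border, because Y699_04124, outside the cluster, had 262 RPM in xylan, 30.9 in cellulose, 1.99 in rice straw and 0.856 in sucrose, 306-fold [140.1 to 834]. The unbroken run thus covered the 15 genes from Y699_04110 to Y699_04124, with ratios of 5.06-fold to 8150.1-fold. It was the longest of the 4 runs of at least 4 neighbours called in 1 direction.

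**Figure D4:**
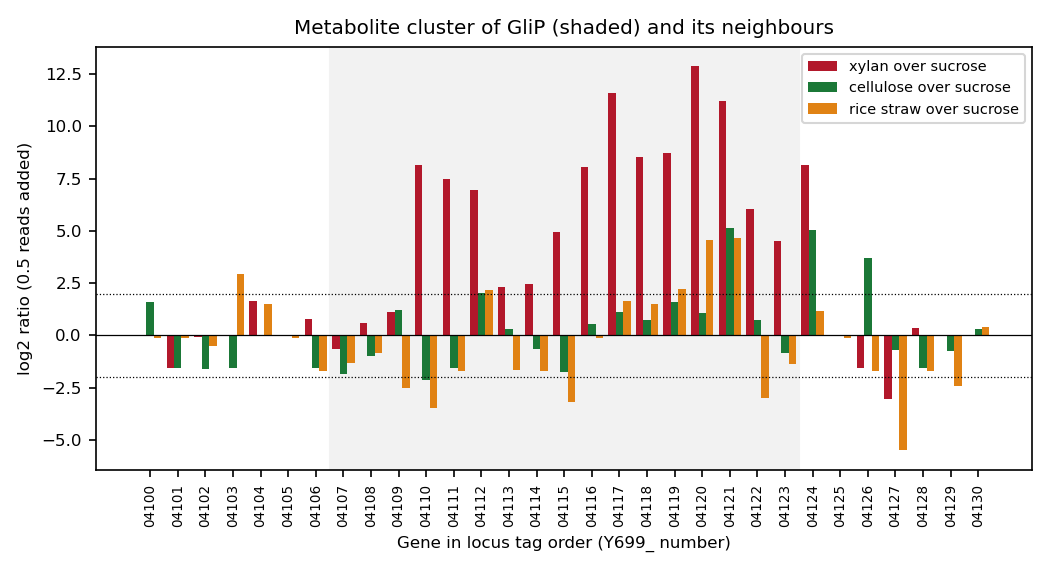
Log2 ratio to sucrose in xylan, cellulose and rice straw of 31 neighbouring genes in locus tag order, with 0.5 reads added, the 17 genes of the GliP cluster shaded and 4-fold as dotted lines. The xylan bars stand out from Y699_04110 to Y699_04124, GliP at 4.96 and GliF at 6.06, while the cellulose and rice straw bars of most of these genes are short or point down.

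A second cluster was high in xylan and cellulose together. The has genes make hexadehydroastechrome, an iron-binding product of a tryptophan and alanine dipeptide. The study's predicted cluster that holds them spanned 18 genes, not all of them has genes, and 7 of the 18 were higher in xylan and none lower. The transporter hasB (Y699_01270) had 16145 RPM in xylan, 8783 in cellulose, 1534 in rice straw and 264 in sucrose, 61.2-fold [58.4 to 64.1]. The prenyltransferase hasE (Y699_01267), which adds a prenyl group to tryptophan, had 5962 RPM in xylan, 3868 in cellulose, 3.71 in rice straw and 35.3 in sucrose, 169-fold [149 to 192]. The methyltransferase hasC (Y699_01269) had 1765 RPM in xylan, 2512 in cellulose, 1.46 in rice straw and 3.85 in sucrose, 458-fold [315 to 695], and the peptide synthase nrps5 (Y699_01268) had 964 RPM in xylan, 2545 in cellulose, 2.52 in rice straw and 7.28 in sucrose, 132-fold [101 to 178]. The cluster's own regulator hasA (Y699_01271) had 1391 RPM in xylan, 3240.1 in cellulose, 108 in rice straw and 215 in sucrose, the smallest ratio of the called members at 6.47-fold [6.13 to 6.84]. The sum over the cluster was 27768 RPM in xylan, 24111 in cellulose, 2152 in rice straw and 1001 in sucrose. All 7 called genes were higher in xylan than in rice straw, and none differed by the thresholds from cellulose.

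A cluster of 10 genes compared was lower in xylan, with 7 genes lower and none higher and a median log2 ratio of -3.02. The cluster overlapped a run of 9 lower neighbours, Y699_07826 to Y699_07834, and all 9 were lower in cellulose and rice straw too. Its polyketide synthase (Y699_07834) had 93.1 RPM in xylan, 7.98 in cellulose, 20.8 in rice straw and 835 in sucrose, 8.97-fold lower [8.26 to 9.75]. The phenol hydroxylase Y699_07828 had 2.05 RPM in xylan, 1.995 in cellulose, 2.52 in rice straw and 1173 in sucrose, and the short-chain dehydrogenase Y699_07833 had 2.35 RPM in xylan, 0.285 in cellulose, 0.794 in rice straw and 176 in sucrose, 75.1-fold lower [46.1 to 132]. Next to the cluster the nucleoside-diphosphate-sugar epimerase Y699_07826 had 8.504 RPM in xylan, 4.99 in cellulose, 12.05 in rice straw and 674 in sucrose, 79.3-fold lower [61.2 to 105]. A Fum3-like toxin gene of another cluster, Y699_09439, had 8.21 RPM in xylan, 1.57 in cellulose, 2.78 in rice straw and 594 in sucrose, 72.4-fold lower [55.6 to 95.98]. In the cluster of 25 genes with the regulator fumR, which controls fumagillin synthesis, 3 were higher and none lower. fumR (Y699_05932) had 24.8 RPM in xylan, 91.6 in cellulose, 34.3 in rice straw and 3.71 in sucrose, 6.68-fold [4.401 to 10.5], and metAP (Y699_05933), the aminopeptidase of the type that fumagillin inhibits, had 155 RPM in xylan, 519.9 in cellulose, 197 in rice straw and 28.7 in sucrose, 5.41-fold [4.65 to 6.32].

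The comparisons of xylan, cellulose and rice straw share the sucrose library, so overlaps between them are given only as the counts that set xylan apart. Against sucrose 10.9% of genes were higher and 7.28% lower in cellulose, and 7.61% were higher and 7.12% lower in rice straw. Of the 297 higher genes 120 were also higher in both cellulose and rice straw, 37 in cellulose only and 52 in rice straw only. The other 88, 0.937% of the genes compared, were higher in xylan alone. Of the 147 lower genes 79 were lower in all 3, 11 also in cellulose only and 30 also in rice straw only, and 27, or 0.287%, were lower in xylan alone. A stricter reading asked that xylan pass the thresholds against each of the other 3 libraries. It left 55 higher genes (0.586%) and 2 lower genes (0.0213%), and 51 of the 55 were among the 88. Of the 88 genes 41 were above 2-fold over sucrose in cellulose or rice straw without a call, and of the 27 lower genes 18 were past 2-fold below.

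A function text other than hypothetical protein stood beside 15 of the 88 genes high in xylan alone. Any text was found for only 2576 of the 9540 genes in the table, so a missing text does not mean an unknown function. The genes high in xylan alone were led by the GliP cluster. Apart from it, the neighbours Y699_06340 and Y699_06341, with no function text, had 2938 RPM in xylan, 19.1 in cellulose, 11.8 in rice straw and 12.8 in sucrose, and 2833 RPM in xylan, 6.13 in cellulose, 7.28 in rice straw and 7.71 in sucrose. Their ratios were 229-fold [186 to 285] and 368-fold [282 to 489.5]. The lipase/esterase Y699_05875, of carbohydrate esterase family CE10, had 362 RPM in xylan, 2.42 in cellulose, 1.59 in rice straw and 4.57 in sucrose, 79.2-fold [55.99 to 116]. The UDP-galactose 4-epimerase Y699_05889, which interconverts UDP-glucose and UDP-galactose, had 32.7 RPM in xylan, 3.71 in cellulose, 9.14 in rice straw and 0.428 in sucrose, 76.3-fold [25.8 to 373], and sits next to the sugar transporter Y699_05888. Y699_07784 and Y699_08655, with no text, had 95.4 and 122 RPM in xylan, and no other library exceeded 5.99 RPM for either. Y699_01766 (agd3), with the text extracellular serine-rich protein and known in *A. fumigatus* as a deacetylase of the polysaccharide galactosaminogalactan, had 3258 RPM in xylan, 166 in cellulose, 791 in rice straw and 770.2 in sucrose, 4.23-fold [4.11 to 4.36]. In cellulose it was called lower than sucrose. The C6 transcription factor Y699_04346 had 179 RPM in xylan, 67.6 in cellulose, 60.4 in rice straw and 21.8 in sucrose, 8.21-fold [6.93 to 9.78].

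The genes low in xylan alone were mostly modest differences. The extracellular lipase Y699_05726 had 5.13 RPM in xylan, 39.9 in cellulose, 19.6 in rice straw and 35.8 in sucrose, 6.98-fold lower [4.89 to 10.3]. The glutathione S-transferase GstA (Y699_01468), which detoxifies reactive compounds, had 5.72 RPM in xylan, 12.4 in cellulose, 27.9 in rice straw and 36.7 in sucrose, 6.42-fold lower [4.57 to 9.23]. The multidrug transporter Mdr1 (Y699_00460) had 60.6 RPM in xylan, 115 in cellulose, 310.5 in rice straw and 291 in sucrose, 4.802-fold lower [4.32 to 5.35], and the lysophospholipase Plb1 (Y699_06258) had 51.3 RPM in xylan, 85.5 in cellulose, 67.8 in rice straw and 211 in sucrose, 4.11-fold lower [3.66 to 4.63]. The alpha-glucosidase AgdA (Y699_06391) had 2.64 RPM in xylan, 22.8 in cellulose, 13.1 in rice straw and 13.6 in sucrose, 5.14-fold lower [3.08 to 9.04]. HmgA (Y699_03206), homogentisate 1,2-dioxygenase of phenylalanine and tyrosine breakdown, had 2.79 RPM in xylan, 137 in cellulose, 32.4 in rice straw and 12.6 in sucrose, 4.51-fold lower [2.72 to 7.84]. AgdA and HmgA were the 2 genes lower in xylan than in each other library, and for HmgA cellulose was called above sucrose. The calls of HmgA and Plb1 against sucrose ended with TMM and with DESeq2 factors, and those of AgdA and HmgA with an assumed coefficient of variation of 0.2. Of the 10 genes low in xylan alone that lay furthest from equality, 6 had no function text, among them Y699_04847, 7.08-fold lower, and Y699_03933, 5.79-fold lower. None of the 27 remained at an 8-fold threshold.

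Levels between genes were compared per kilobase of coding length. In xylan the gene with no function text Y699_03637 was far above all others at 92809 RPM per kilobase in xylan and 80502 in sucrose, and it was not called. It was followed by Y699_01582, also without a text and higher in xylan alone, at 15711 in xylan and 1568 in sucrose. hasB (Y699_01270) was next, at 11354 in xylan and 186 in sucrose. Y699_04123 of the GliP cluster reached 6860.1 in xylan and 299.97 in sucrose. On this scale XlnA (Y699_07611) had 212 in xylan and 0.623 in sucrose, and Xyl1 (Y699_06810) had 656 in xylan and 44.4 in sucrose, so that Xyl1 was above the xylanase per unit of length.

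**Figure D5:**
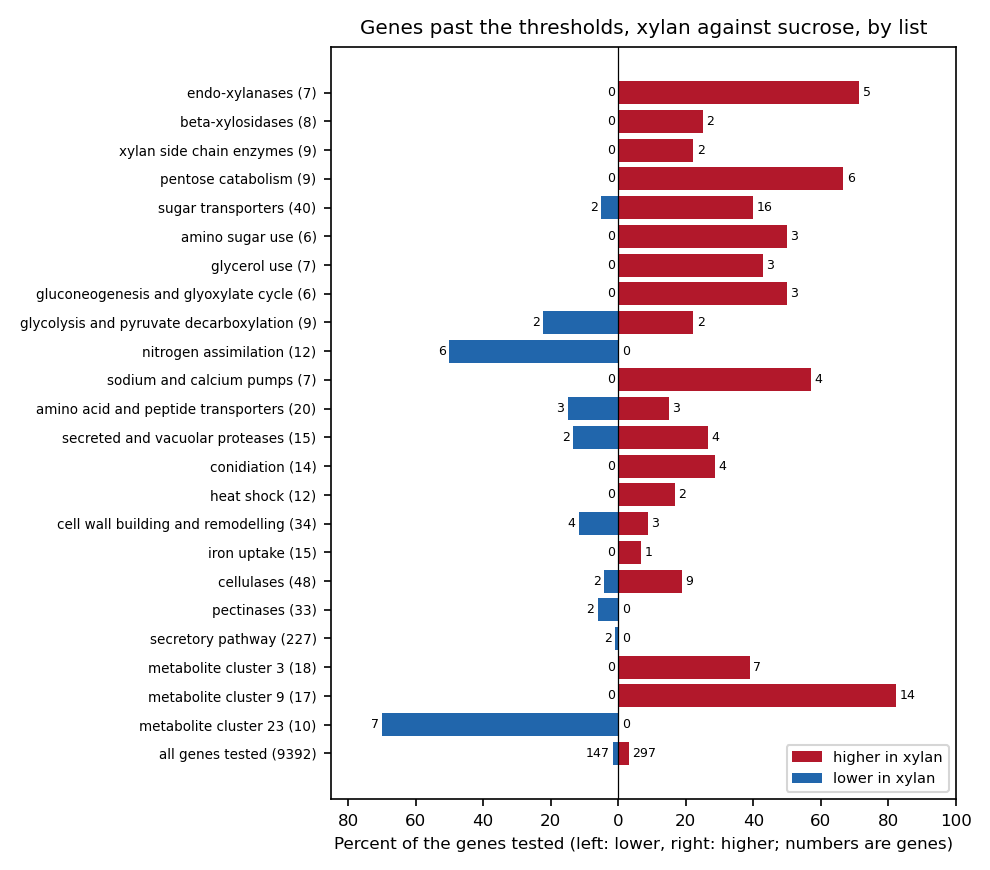
Percent of the genes compared that were higher (right) and lower (left) in xylan than in sucrose for 23 lists of genes and for all genes, with the number of genes at the bar ends and the list size in brackets. The GliP cluster (metabolite cluster 9) has 14 of 17 genes higher and the nitrogen list 6 of 12 lower, against 297 higher and 147 lower of 9392 for all genes.

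Near the threshold the split is one of degree. Just inside it were Y699_05880 at 4.01-fold higher, and Y699_04496 at 4.04-fold and the ABC transporter Y699_00881 at 4.05-fold lower. With TMM factors the 2 lower ones were no longer called. Just outside were Y699_04548 at 3.99-fold and Y699_08587 at 3.98-fold above sucrose, and Y699_01391 at 3.98-fold and Y699_09216 at 3.98-fold below it. The strand of counting was not given in the sources used here, so reads of overlapping or antisense genes and of near-identical copies cannot be told apart.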

How the data were processed

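Poly(A) RNA of mycelium in xylan, cellulose, rice straw and sucrose was sequenced by the submitters as 1 library each, without replicates. The deposited table gave raw read counts per gene of the Z5 genome, mapped with Bowtie 0.12.2 according to the submitters' processing notes, beside RPM that the authors scaled by column total. The genome build was not given in the sources used here. The table's log2 ratio and q-value columns hold the authors' own comparisons, made with DEGseq, and were not used. Of the per-sample columns the counts were used, and RPM was computed again from them in place of the deposited RPM. The authors' coding length gave reads per kilobase.

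Counts were scaled by the library totals and compared gene by gene with a conditional binomial test (SciPy 1.17.1), two-sided, with Benjamini-Hochberg adjustment over all genes with a read. Calls followed the study's thresholds of q at most 0.0001, 4-fold and 10 RPM. Intervals were exact (Clopper-Pearson, 95%). A library with 0 reads was set to a floor of 3 counts for a lower bound, and 0.5 reads were added for log2 ratios. A gene was in xylan alone when it was called against sucrose and neither cellulose nor rice straw was called against sucrose in the same direction. Alternatives were edgeR 4.0.16 TMM factors, DESeq2 1.42.0 size factors, other totals, filters and folds, and edgeR's exact test at a set coefficient of variation (R 4.3.3, Python 3.11.15, NumPy 2.4.6, pandas 2.3.3, matplotlib 3.10.9). The tests were tried on simulated counts with known changes and counting noise only, which says nothing about the spread between cultures.

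The genes named were the 10 called genes furthest from equality by the interval's nearer bound, in each direction and again among genes in xylan alone, the members of the endo-xylanase, beta-xylosidase, pentose, regulator and GliP cluster lists, up to 5 of the most abundant called genes of each other list, and 2 genes on each side of the threshold. Of the genes furthest from equality, those without a function text were to be counted, with at most 2 in each direction given by locus tag. The rule selected 224 genes, of which the text gives only a part, and 1 item is not reported here. Others, such as Y699_07784, Y699_08655, Y699_01582, Y699_03637, Y699_02122 and Y699_04830, were named after their values were seen. Function texts came from the study's supplementary lists and symbols from the RefSeq table of the Af293 assembly ASM265v1. An Af293 match was found for 1684 genes and a symbol for 326. Lists and members were chosen with earlier results of these data known.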

Additional observations from a re-analysis of the deposited data

Results flagged for a closer look

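A group of 12 genes was called in xylan against sucrose and called the other way in cellulose or rice straw. The group was picked by calls against sucrose, and all 3 of those comparisons share the sucrose library. In the direct comparisons hasE, GliF and GliP were called higher in xylan than in rice straw, and Y699_04557 higher than in cellulose. Y699_02062 was called higher in xylan than in both, and HmgA lower than in both. Compared with sucrose, 10 of the 12 genes were higher in xylan. The log2 ratio of xylan to sucrose was 7.40 for hasE (Y699_01267), 6.06 for GliF (Y699_04122) and 4.96 for GliP (Y699_04115), and these were lower than sucrose in rice straw, by 3.23, 2.99 and 3.20 on the log2 scale. It was 5.11 for the monosaccharide transporter Y699_04557, which in cellulose fell by 3.68 on the log2 scale. For Y699_02062, with no function text, it was 2.95, and both other polysaccharides were below sucrose, by 3.20 in cellulose and 5.56 in rice straw. The GH2 glycosyl hydrolase Y699_03761 had 2.61 and Y699_07355, with no text, had 2.10, both lower than sucrose in rice straw. Y699_08662 had 3.35, Y699_05361 had 2.38 and agd3 (Y699_01766) had 2.08, all lower than sucrose in cellulose. The genes lower in xylan were HmgA (Y699_03206), at -2.14 in xylan and 3.44 in cellulose, and the polygalacturonase pgaB (Y699_05780), at -2.16 in xylan and 2.32 in rice straw. The call of HmgA in xylan ended with TMM and with DESeq2 factors, and that of pgaB with DESeq2 factors.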

How the results depend on the processing

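No paired analysis was possible because with 1 library a group no replicate number was shared, and for the same reason no library could be left out. With library totals 297 genes were higher and 147 lower in xylan than in sucrose, 88 and 27 in xylan alone, and 55 and 2 against each other library. With TMM factors 353 were higher and 111 lower, among them all 297 of the higher genes, and genes lower in xylan alone fell to 15, or to 14 with DESeq2 factors. Totals without the most abundant 1% of genes gave 4 genes lower than each other library. An assumed coefficient of variation of 0.2 gave 12 genes lower in xylan alone and 0 lower than each other library. At 0.4 it gave 57 higher and 13 lower genes, 25 and 1 in xylan alone, and 15 and 0 against each other library. At that setting 11 genes of the GliP cluster, 2 endo-xylanases and 0 pentose genes stayed higher. A minimum of 10 RPM in both libraries gave 119 higher and 69 lower genes, 39 higher in xylan alone, and 14 and 0 against each other library. The 2-fold threshold gave 704 and 843, 198 and 155 in xylan alone, and 175 and 46 against each other library. With TMM factors added, an alternative chosen after seeing the data, it gave 866 and 550, 252 and 105, and 206 and 22. The 8-fold threshold gave 170 and 42, 0 lower in xylan alone, and 28 and 0 against each other library. Asking that neither cellulose nor rice straw pass 2-fold left 47 and 9 genes in xylan alone. With no RPM filter 362 were higher and 188 lower. The signs of 2 genes that were not called turned, to 0.052 (TMM) and 0.070 (DESeq2) for Y699_01475 and to 0.062 (TMM) and 0.080 (DESeq2) for XlnR (Y699_02312). Of the 224 genes named by rule, 14 were no longer past the thresholds with TMM, 22 with an assumed variation of 0.2 and 149 with 0.4. A gene under 3 reads in a library, below 0.44 RPM in xylan, has a ratio set mainly by counting, and without replicates the spread between cultures was not measured.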

Other observations

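Pyruvate decarboxylation, the first step of ethanol formation, was one place where xylan stayed near sucrose while the other polysaccharides did not. PdcA (Y699_01443) had 4980.4 RPM in xylan, 69.4 in cellulose, 294 in rice straw and 6621 in sucrose, and pdcC (Y699_05333) had 119 RPM in xylan, 0.713 in cellulose, 10.7 in rice straw and 241 in sucrose. Phosphoglycerate kinase PgkA (Y699_08236), a step of glycolysis, had 1586 RPM in xylan, 503 in cellulose, 527 in rice straw and 2709 in sucrose. None was called in xylan against sucrose. Of the 9 glycolysis and pyruvate decarboxylation genes, 3 were higher and 1 lower in xylan than in cellulose, against 6.49% and 9.65% of all genes. The opposite order held for phosphoenolpyruvate carboxykinase acuF (Y699_03930), which starts gluconeogenesis, with 2526 RPM in xylan, 14896 in cellulose, 16476 in rice straw and 1071 in sucrose.

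A pair of genes with an ATPase text, neither of them among the 4 called sodium and calcium pump genes, had a like order. Y699_00048, with the text H/K ATPase alpha subunit, had 4428 RPM in xylan, 155 in cellulose, 1616 in rice straw and 2649.8 in sucrose, and Y699_08476, with the text Na/K ATPase alpha subunit, had 971 RPM in xylan, 94.9 in cellulose, 697 in rice straw and 573 in sucrose. Neither was called against sucrose, and both were called higher in xylan than in cellulose. The iron permease ftrA (Y699_00336) had 609.8 RPM in xylan, 114 in cellulose, 66.99 in rice straw and 608 in sucrose. The 15 iron uptake genes summed to 2733 RPM in xylan and 5339 in sucrose, with a median log2 ratio of -0.54. Of these 6 were higher and 2 lower in xylan than in cellulose, against 6.49% and 9.65% of all genes, and 8 were higher and 2 lower than in rice straw, against 4.68% and 4.56%. These genes were chosen after their values were seen, and the comparisons share libraries.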
